A study of Mus musculus with 574 samples.

Results

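The genes described here are 6 that mark the mast cell and basophil lineage, Gata2, Ms4a2, Fcer1a, Cpa3, Mcpt8 and Prss34, out of 46078 gene rows. They were followed by name through 6 sets of single granulocyte/macrophage progenitors (GMPs), the bone marrow progenitors best known as the source of neutrophils and monocytes. The GMPs came from C57Bl/6 mice of 6 to 12 weeks and were sorted for c-Kit, CD34 and FcγR and against Sca-1 and lineage markers. The animals had received 5-fluorouracil (5-FU), an antimetabolite that kills dividing cells, once at 150 mg/kg. The groups were day 0, day 8 with 2 sets, day 10, day 12 and day 14. The labels give 5-FU as the treatment of every cell, day 0 included, while the protocol also names a PBS control without saying which cells it concerns. Libraries were made by Smart-seq2, which covers whole transcripts and carries no molecular identifiers. Of 573 cells, the 500 that reached 50000 reads in gene rows and 1000 detected genes were kept. They numbered 92 at day 0, 90 and 93 in sets 1 and 2 of day 8, 93 at day 10, 85 at day 12 and 47 at day 14.

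Mast cells and basophils carry IgE on the surface and release histamine, lipid mediators and granule proteases when antigen cross-links it. Both descend from myeloid progenitors in which GATA2 is active, and progenitors with basophil and mast cell potential fall partly within surface gates used for GMPs. Gata2 encodes the zinc finger transcription factor. Fcer1a and Ms4a2 encode the alpha chain, which binds IgE, and the beta chain, which amplifies the signal, of the high-affinity IgE receptor. Cpa3 encodes mast cell carboxypeptidase A, a granule enzyme also made in early basophils and in some stem and progenitor cells. Mcpt8 and Prss34 encode the granule serine proteases mMCP-8 and mMCP-11, which in the mouse are used as basophil markers.

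GATA factors bind sequences with a GATA core, so the windows around the start sites of the members were searched for AGATAA and TGATAA on both strands. The sequences are RefSeq windows of GRCm38.p6 and run from 250 bases before to 50 bases after the start site. AGATAA was found in the windows of Ms4a2, Fcer1a, Cpa3 and Prss34, and not in those of Mcpt8 or in either of the 2 windows of Gata2. It lies in 11.2% of 32817 such windows genome-wide, and TGATAA, in 9.06% of them, was in none of the members' windows. The 4 windows with a match and that of Mcpt8, the member that went least with the others below, are given 5′ to 3′ on the strand of the gene, with matches in capitals (TTATCT is AGATAA on the other strand). A match describes the letters only, and no binding was measured.
Ms4a2, chr19:11623670-11623969, minus strand: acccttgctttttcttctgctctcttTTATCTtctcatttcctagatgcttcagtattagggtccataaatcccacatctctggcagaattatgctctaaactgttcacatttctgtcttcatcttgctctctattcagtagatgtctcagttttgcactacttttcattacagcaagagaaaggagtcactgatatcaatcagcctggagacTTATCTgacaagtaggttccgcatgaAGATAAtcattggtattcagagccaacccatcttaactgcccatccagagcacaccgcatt
Fcer1a, chr1:173227180-173227479, minus strand: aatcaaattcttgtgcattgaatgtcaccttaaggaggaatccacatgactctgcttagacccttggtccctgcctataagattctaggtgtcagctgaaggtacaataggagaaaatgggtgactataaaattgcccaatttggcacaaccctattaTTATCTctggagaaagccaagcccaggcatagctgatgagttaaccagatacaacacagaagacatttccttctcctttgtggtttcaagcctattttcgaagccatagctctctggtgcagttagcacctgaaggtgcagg
Cpa3, chr3:20242132-20242431, minus strand: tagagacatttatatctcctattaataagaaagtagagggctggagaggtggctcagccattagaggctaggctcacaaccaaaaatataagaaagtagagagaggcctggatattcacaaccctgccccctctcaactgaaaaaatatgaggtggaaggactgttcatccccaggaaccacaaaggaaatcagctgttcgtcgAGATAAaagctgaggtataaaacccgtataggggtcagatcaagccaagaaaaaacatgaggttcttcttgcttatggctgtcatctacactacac
Prss34, chr17:25298144-25298443, plus strand: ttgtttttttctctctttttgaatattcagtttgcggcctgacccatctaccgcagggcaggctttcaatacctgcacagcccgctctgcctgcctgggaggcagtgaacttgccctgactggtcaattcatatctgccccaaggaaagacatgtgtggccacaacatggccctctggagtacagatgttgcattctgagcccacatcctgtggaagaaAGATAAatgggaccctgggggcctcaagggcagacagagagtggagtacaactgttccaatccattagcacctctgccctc
Mcpt8, chr14:56085148-56085447, minus strand: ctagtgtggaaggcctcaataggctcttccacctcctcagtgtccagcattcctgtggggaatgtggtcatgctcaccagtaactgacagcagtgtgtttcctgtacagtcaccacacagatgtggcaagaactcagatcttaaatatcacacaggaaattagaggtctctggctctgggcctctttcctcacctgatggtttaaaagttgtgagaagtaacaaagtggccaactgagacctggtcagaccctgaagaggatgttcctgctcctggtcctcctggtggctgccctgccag
The window of Ms4a2 holds 3 matches, and the other 3 genes hold 1 each.

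In the mm10 (GRCm38) annotation Gata2 lies at chr6:88193891-88207032 on the plus strand and Ms4a2 at chr19:11615523-11623719 on the minus strand. Fcer1a lies at chr1:173221284-173227214 and Cpa3 at chr3:20215620-20242181, both on the minus strand. Mcpt8 lies at chr14:56082166-56085273 on the minus strand and Prss34 at chr17:25298394-25300165 on the plus strand. No exon of the 6 overlaps an exon of another gene on either strand, so the method's lack of strand information does not mix them with a neighbour. Of the 3003 words of 50 bases in transcripts of Ms4a2, 63 also occur in transcripts of its paralog Ms4a4b. Gata2, Fcer1a, Cpa3, Mcpt8 and Prss34 share 0 such words with other genes.

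The median kept cell had 145092 reads in genes at day 0, 289938 and 214717 in the day 8 sets, 224022 at day 10, 158578 at day 12 and 79451 at day 14. Shares of cells are therefore given after each cell was thinned to 50000 reads, with exact 95% binomial intervals that cover counting error only. The sort gate genes Kit, Cd34 and Fcgr3 had reads in all 6 sets, though Fcgr3 was called lower on day 8 (values below), and Ly6a, which encodes Sca-1, was at 3.84 to 12.98 CPM after TMM scaling. Xist, transcribed from the inactive X, was read in 86.96% and 88.2% of thinned cells on days 0 and 12, against 0 to 6.45% in the other 4 sets. The Y-linked genes Eif2s3y or Kdm5d were read in 57.4% to 83.9% of cells of those 4 sets. By these genes sex differs between days 8, 10 or 14 and day 0, and between day 12 and day 8, and cannot be told apart from the day in those 4 comparisons. Day 12 against day 0, and days 10 and 14 against day 8, set like against like. The row of Slc34a2 took from 84071 to 311251 CPM, the most on day 14, and its part in the levels of that day was not tested. Every day except day 8 is 1 set. Nothing says that the 2 day 8 sets came from separate animals, and the p-values rest only on how far those 2 sets differ, which may be technical.

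Gata2, Ms4a2 and Mcpt8 rose on day 8 against day 0 by 1.38 to 3.03 on the log2 scale, and Fcer1a was read in cells of day 8 but in none of day 0. Cpa3 and Prss34 did not pass the test. By day 10 Gata2, Ms4a2 and Cpa3 had fallen against day 8, and on day 14 Gata2 and Ms4a2 were at their lowest levels of the series. Those day 14 levels rest on 19 reads of Gata2 and 5 of Ms4a2. Cells that held several members at once were most frequent on day 8. In the summed counts that were tested, fewer cells of a type and less RNA per cell cannot be told apart, so the share of cells and the level in cells with a read are given beside them.

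Gata2 was read, after thinning, in 16.3% of cells at day 0 (15 of 92, interval 9.42% to 25.5%). It was read in 35.6% and 52.7% of the day 8 sets (32 of 90 and 49 of 93), in 19.4% at day 10, 29.4% at day 12 and 4.26% at day 14. Its interval in the second day 8 set, 42.1% to 63.1%, lay above those of days 0, 10, 12 and 14. The reads summed over all kept cells, without thinning, gave 24.1 CPM at day 0, 62.1 and 71.7 CPM at day 8, 18 CPM at day 10, 35.99 CPM at day 12 and 3.92 CPM at day 14. Both day 8 sets were above every other set. Among cells with a read, the median was 48.2 CPM at day 0, 21.6 and 57.1 CPM at day 8, 28.3 CPM at day 10, 24.3 CPM at day 12 and 15.3 CPM at day 14. The day 8 medians enclose that of day 0, whereas the share of thinned cells with a read was higher in both day 8 sets. The medians are of cells before thinning, 22 at day 0 and 52 and 66 at day 8. Day 8 cells were deeper, and their lowest levels were 0.862 and 1.54 CPM, against 2.86 CPM at day 0. The medians thus do not separate level from depth. No single cell carried most of the Gata2 reads of any set: the top cell held 15.1% to 42.1% of them. The top 3 cells held 36.3% to 84.2%.

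Of the receptor subunits, Ms4a2 was read in 6.52% of thinned cells at day 0 (6 of 92), 13.3% and 18.3% at day 8 (12 of 90 and 17 of 93), 4.30% at day 10, 3.53% at day 12 and 6.38% at day 14 (3 of 47). The summed reads gave 5.83 CPM at day 0, 36.1 and 65.2 CPM at day 8, 4.54 CPM at day 10, 16.3 CPM at day 12 and 1.03 CPM at day 14. Its levels in single cells covered a wide range: at least 100 CPM was reached by 2 cells at day 0, 8 and 10 cells in the day 8 sets, 2 at day 10, 1 at day 12 and none (0) at day 14. The highest cell of day 8 reached 2007 CPM. The top 3 cells held 84.4% of the Ms4a2 reads at day 0 and 68.1% and 78.3% in the day 8 sets. The intervals of its share at day 0 (2.43% to 13.7%) and in the day 8 sets (7.08% to 22.1% and 11% to 27.6%) overlapped. On day 12 a single cell held 91.7% of the Ms4a2 reads of the set, and without it the set was at 1.36 CPM. Fcer1a was the rarest receptor gene. It was read in 0 of 92 cells at day 0 and 0 of 47 at day 14. Taken as 3 counts, a count of 0 allows 3.26% and 6.38% there, and the exact intervals reach 3.93% and 7.55%. Thinned cells of the day 8 sets held it in 6.67% and 6.45% (6 cells each), and those of days 10 and 12 in 1 and 3 cells. Its summed level was 10.5 and 13.6 CPM at day 8, 0.293 CPM at day 10 and 6.62 CPM at day 12, where 1 cell held 97.3% of the reads.

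The granule genes had 3 different patterns. Cpa3 was read in 23.9% of thinned cells at day 0 (22 of 92), 31.1% and 37.6% at day 8, 18.3% at day 10, 18.8% at day 12 and 14.9% at day 14. The intervals of day 0 and of both day 8 sets overlapped. Its summed level was 137.5 CPM at day 0, 153.5 and 66.3 CPM at day 8, 37.6 CPM at day 10, 58.1 CPM at day 12 and 72.4 CPM at day 14. The day 8 sets thus lay on either side of day 0. The level of Cpa3 was carried by few cells: the top 3 cells held 43.1% to 89.7% of a set's reads, and 1 cell held 63.3% at day 10 and 79.8% at day 14. Mcpt8 was by far the most widely read member, in 45.7% of thinned cells at day 0 (42 of 92), 81.1% and 68.8% at day 8 (73 of 90 and 64 of 93), 64.5% at day 10, 30.6% at day 12 and 25.5% at day 14. Its intervals at day 8 lay above that of day 0, and the interval of day 10, 53.9% to 74.2%, overlapped both. The summed level of Mcpt8 was 49.5 CPM at day 0, 176.8 and 96.9 CPM at day 8, 74.6 CPM at day 10, 49.5 CPM at day 12 and 29.5 CPM at day 14. Its median in cells with a read, before thinning, was 106.3 and 73.5 CPM at day 8, against 48.99 CPM at day 0. Both the share and the level in positive cells of Mcpt8 were thus higher in each day 8 set than on day 0.

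Prss34 was scarce in cells and uneven between them. It was read in 5 of 92 thinned cells at day 0, 3 of 90 and 0 of 93 at day 8, 3 of 93 at day 10, 3 of 85 at day 12 and 0 of 47 at day 14. For the second day 8 set the limit of 3 counts is 3.23% and the interval reaches 3.89%. A single cell held 93.2% of its reads at day 0, 84.8% in the first day 8 set, 75.3% at day 10 and 98.6% at day 12. Without thinning, 14 of 93 day 10 cells had a read of Prss34, of which 13 had 1 to 4 reads. One kept cell of that set had 1200 CPM of Prss34, and a further cell of the set, below the read minimum, had 21586 CPM. The part of these cells in the low reads of the others was not tested.

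**Figure D1:**
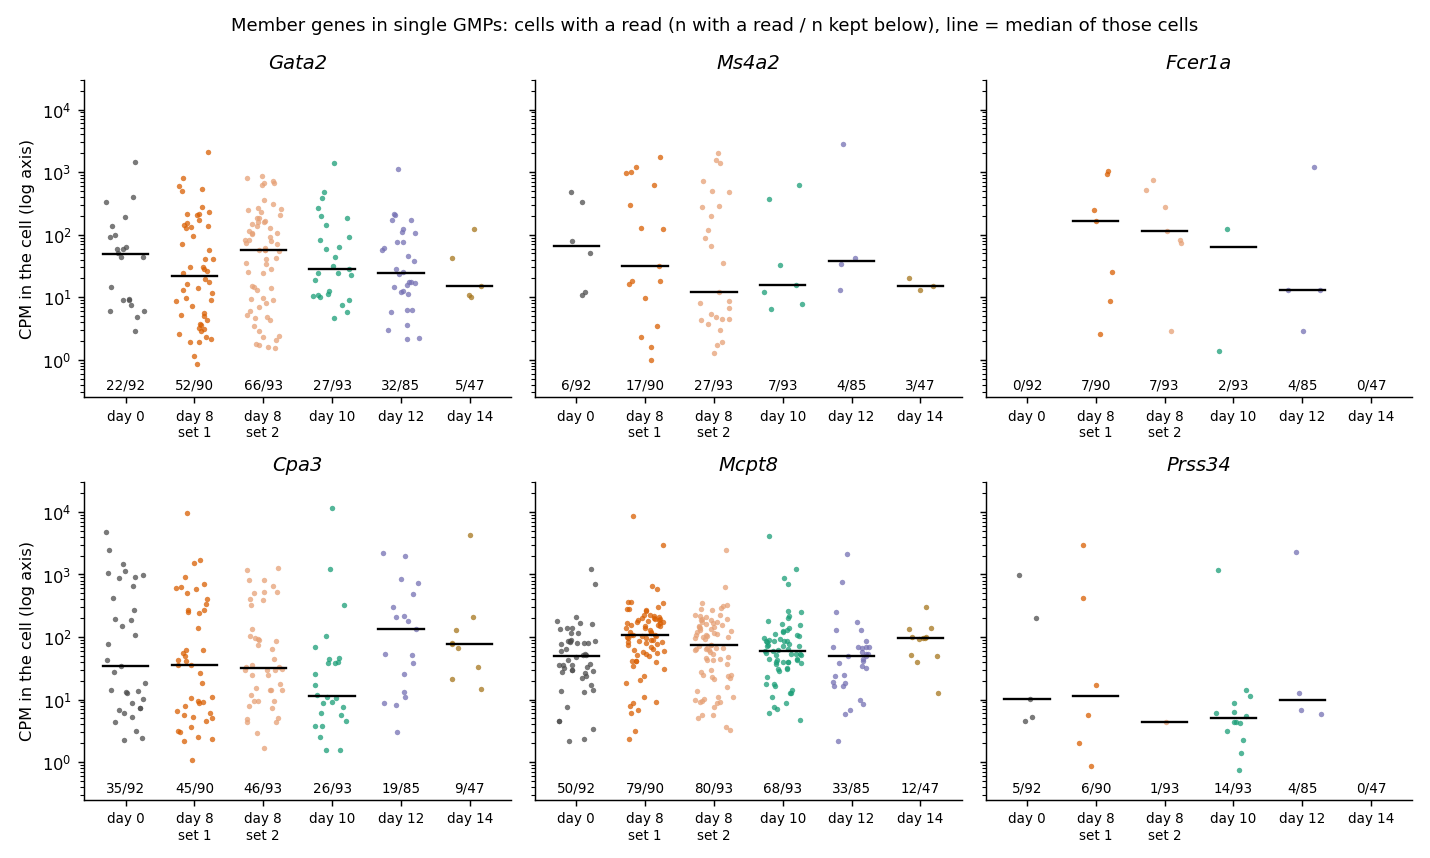
CPM of each member gene in every kept cell with a read, on a log axis, by set; the numbers give cells with a read out of cells kept, before thinning, and the lines the medians of cells with a read. Mcpt8 was read in 79 of 90 and 80 of 93 cells at day 8, against 50 of 92 at day 0, while Fcer1a and Prss34 were each carried by few cells.

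**Figure D2:**
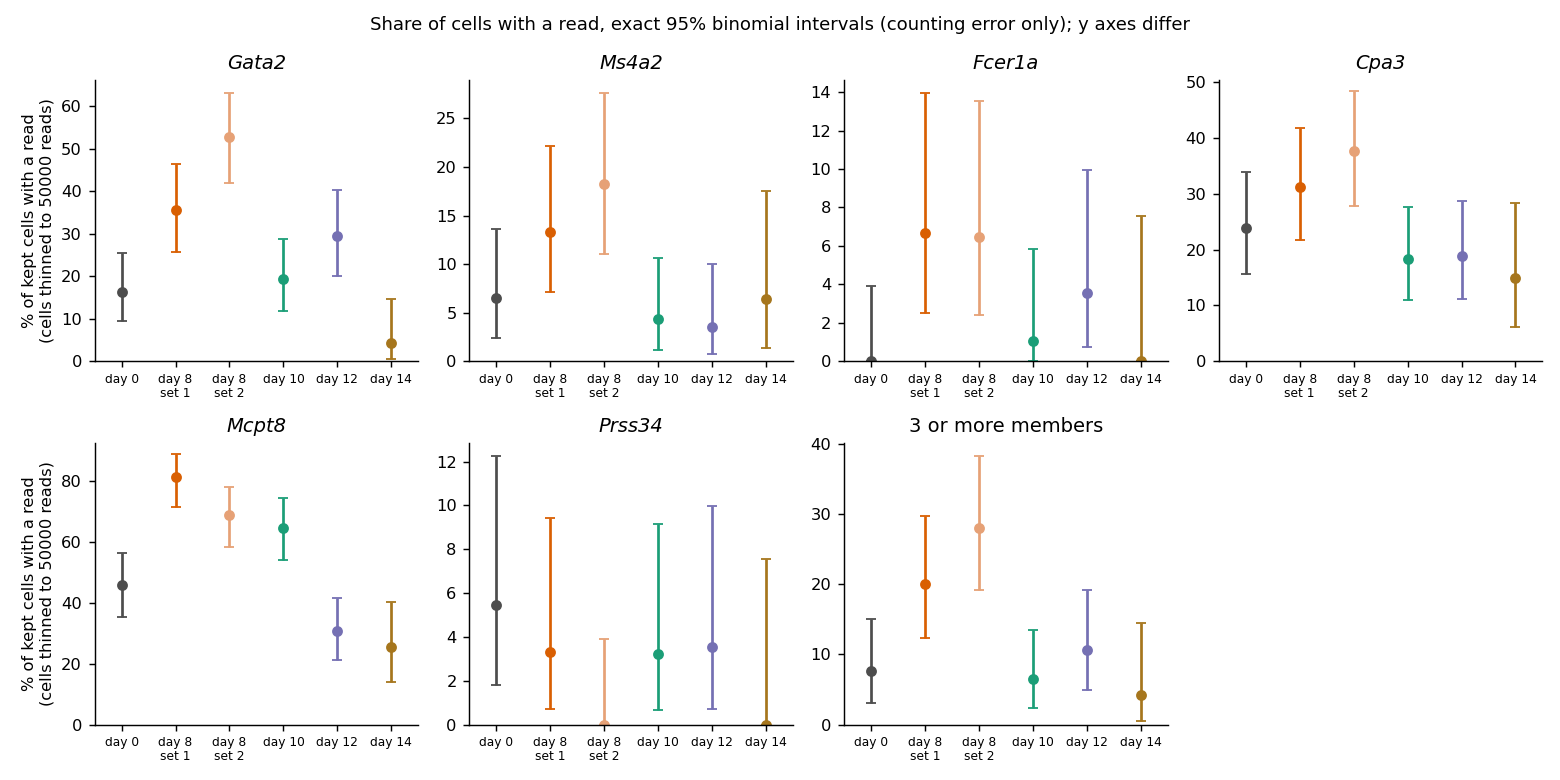
Percent of kept cells with a read after thinning to 50000 reads, for each member and for cells with reads of at least 3 members, by set, with exact 95% binomial intervals; the y axes differ between panels. Both day 8 sets lie above day 0 for Gata2, Ms4a2, Fcer1a, Cpa3, Mcpt8 and the cells with 3 or more members, and below it for Prss34.

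Levels of different genes were compared per kilobase of exon. Mcpt8 and Cpa3 were the highest of the 6 in every set. Mcpt8 had 49.6 CPM per kb at day 0, 177.2 and 97.1 at day 8, 74.8 at day 10, 49.6 at day 12 and 29.5 at day 14. Cpa3 had 90.6 at day 0, 101.2 and 43.7 at day 8, 24.8 at day 10, 38.3 at day 12 and 47.7 at day 14, above Mcpt8 on days 0 and 14 and below it in the other 4 sets. Ms4a2 was above Gata2 only in the day 8 sets, at 12.8 and 23.2 CPM per kb against 11.5 and 13.3 for Gata2. Prss34 was the third highest at day 0, at 14.6, and at day 12, at 10.1 CPM per kb.

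The comparison of day 8 with day 0 asks how the lineage genes stood in the regenerating progenitors. Of the 6 members 5 were tested, as Fcer1a was read in under 10% of the cells of every set. Prss34 passed that filter only through day 10. Ms4a2 passed it only through the day 8 sets, where 18.9% and 29% of cells had a read before thinning. Among the 5, 3 rose and 0 fell, and 5.63% of the 15145 genes tested were called. Ms4a2 rose by 3.03 on the log2 scale (SE 0.45, adjusted p = 4.12e-06). Gata2 rose by 1.39 (SE 0.32, adjusted p = 0.00463) and Mcpt8 by 1.38 (SE 0.31, adjusted p = 0.00262). With either day 8 set left out, and then without a test, these changes were 2.55 to 3.40 for Ms4a2, 1.29 to 1.49 for Gata2 and 0.89 to 1.76 for Mcpt8. Cpa3 differed by -0.40 (SE 0.30, adjusted p = 0.504), and by -1.14 or 0.08 with the first or the second day 8 set left out. Prss34 differed by -2.23 (adjusted p = 0.0681), and by -1.05 (adjusted p = 0.627) once the reads of its top cell in each set were left out. Prss34 was called lower in 6 other settings, among them limma voom (adjusted p = 6.46e-06) and the fit without day 14 (adjusted p = 0.00105), and Mcpt8 was not called in cells of at least 200000 reads (adjusted p = 0.0622). When every cell was thinned to 50000 reads before summing, edgeR called 0 of 13180 genes in each of the 7 comparisons, members included, while the changes of Gata2, Ms4a2 and Mcpt8 at day 8 were 1.41, 2.79 and 1.49. At an unadjusted p under 0.05 that fit had 2 members and 1320 genes at day 8 against day 0. Other genes moved beside the members: the gate gene Fcgr3 fell by 1.41 (adjusted p = 0.000174), the neutrophil elastase gene Elane fell by 2.66 (adjusted p = 1.33e-08) and the erythroid-list gene Car2 rose by 2.52 (adjusted p = 1.05e-07), and their part in the members' levels was not tested. Fcer1a had 672 reads at day 8 and 0 at day 0, which with day 0 set to 3 reads is 61.7-fold higher on day 8. The top 3 cells held 91.0% and 89.4% of its reads in the day 8 sets. The 3 reads cover counting error of reads and not missed cells, so the fold is no lower limit.

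Against day 0, the later days gave few calls. On day 10, 1 of 5 tested members was called, beside 1.45% of all genes tested. This was Cpa3, which fell by 1.88 on the log2 scale (SE 0.36, adjusted p = 0.00149). DESeq2's Wald test did not call Cpa3 (-1.87, adjusted p = 0.732), and without the top cell of each set its difference was -2.85. Sex differs between these days as well. On day 12, edgeR called 0 of 5 members, beside 0.172% of all genes, with 2 members at an unadjusted p under 0.05. DESeq2 and limma voom also called 0, while 1 was called without the filter on low counts, 1 (Prss34) in cells of at least 200000 reads, and 1 (Cpa3) without the day 14 set. On day 14, 2 of 5 were called, both lower, beside 1.58% of all genes. Gata2 fell by 2.33 on the log2 scale (SE 0.45, adjusted p = 0.00118), a call lost with limma voom (adjusted p = 0.310) and in cells of at least 200000 reads (adjusted p = 0.0560). Sex differs here too. Prss34, with 0 reads at day 14, was 23.5-fold lower with day 14 set to 3 reads (adjusted p = 0.00882). That call was lost without the top cell of each set (adjusted p = 0.386). Cpa3 differed by -0.63 (adjusted p = 0.448) at day 14 and by -2.46 (adjusted p = 5.42e-05) without those cells.

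Against day 8, whose sets the next 3 comparisons share, the members that were called were all lower. Ms4a2 passed the filter on cells only through those day 8 sets. On day 10, 3 of 5 tested members fell and 0 rose, beside 0.792% of all genes called. Ms4a2 fell by 3.40 on the log2 scale (SE 0.45, adjusted p = 2.33e-06), Gata2 by 1.82 (SE 0.33, adjusted p = 0.000813) and Cpa3 by 1.48 (SE 0.32, adjusted p = 0.00931). DESeq2's Wald test called 2 of the 5 and did not call Cpa3, whose difference was -0.75 without the first day 8 set and -1.96 without the second. Mcpt8 differed by -0.80 (adjusted p = 0.300). On day 12, 2 of 5 fell, beside 2.5% of all genes. Ms4a2 fell by 1.54 (SE 0.40, adjusted p = 0.0201) and Mcpt8 by 1.38 (SE 0.31, adjusted p = 0.00407). DESeq2's Wald test lost Ms4a2 (adjusted p = 0.120), whose difference was -4.32 (adjusted p = 3.12e-06) without the top cell of each set. Sex differs between days 12 and 8. On day 14, 4 of 5 fell, beside 14.2% of all genes. Ms4a2 fell by 5.23 (SE 0.62, adjusted p = 5.64e-09), Gata2 by 3.72 (SE 0.43, adjusted p = 2.71e-09) and Mcpt8 by 1.84 (SE 0.33, adjusted p = 5.08e-05). The day 14 level of Ms4a2 rests on 5 reads in 3 cells, and that of Gata2 on 19 reads in 5 cells. Prss34 was 5.39-fold lower with day 14 set to 3 reads (adjusted p = 0.0343). That call was lost without the top cells (adjusted p = 0.312). It was also lost with DESeq2, limma voom, DESeq2 size factors, cells of at least 200000 reads and a fit of these 2 days alone. Over these further settings adjusted p ran from 0.0644 to 0.821. Mcpt8 was lost in those deeper cells (adjusted p = 0.0505). Cpa3 differed by -0.23 (adjusted p = 0.664), and by -1.80 (adjusted p = 0.00023) without the top cell of each set. Fcer1a, which was not tested, had 0 reads at day 14. With day 14 set to 3 reads it was 14.9-fold lower than on day 8, which is likewise no lower limit.

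Over all sets, cells with a read of 1 member had each other member more often than cells without it; these shares are a description. Over the 500 thinned cells, Gata2 was read in 73.3% of the 45 cells with Ms4a2, against 23.7% of the 455 without it. Ms4a2 was read in 75% of the 16 cells with Fcer1a, against 6.82% of the 484 without. This held in each of the 4 sets with both genes. Cpa3 was read in 52.5% of the 141 cells with Gata2, against 14.2% of the 359 without, and the share was higher with Gata2 in all 6 sets. Of the 16 cells with Fcer1a, 14 had Gata2 and 13 had Cpa3. Mcpt8 was read in 64.4% of cells with Ms4a2 and 54.5% of those without, and the share was higher with Ms4a2 in 3 of 6 sets. Of the 277 cells with Mcpt8, 181 had no read of Gata2 and 248 no read of Ms4a2. Prss34 was read in 14 thinned cells, of which 11 had Mcpt8, 8 Cpa3, 7 Gata2 and 6 Ms4a2.

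**Figure D3:**
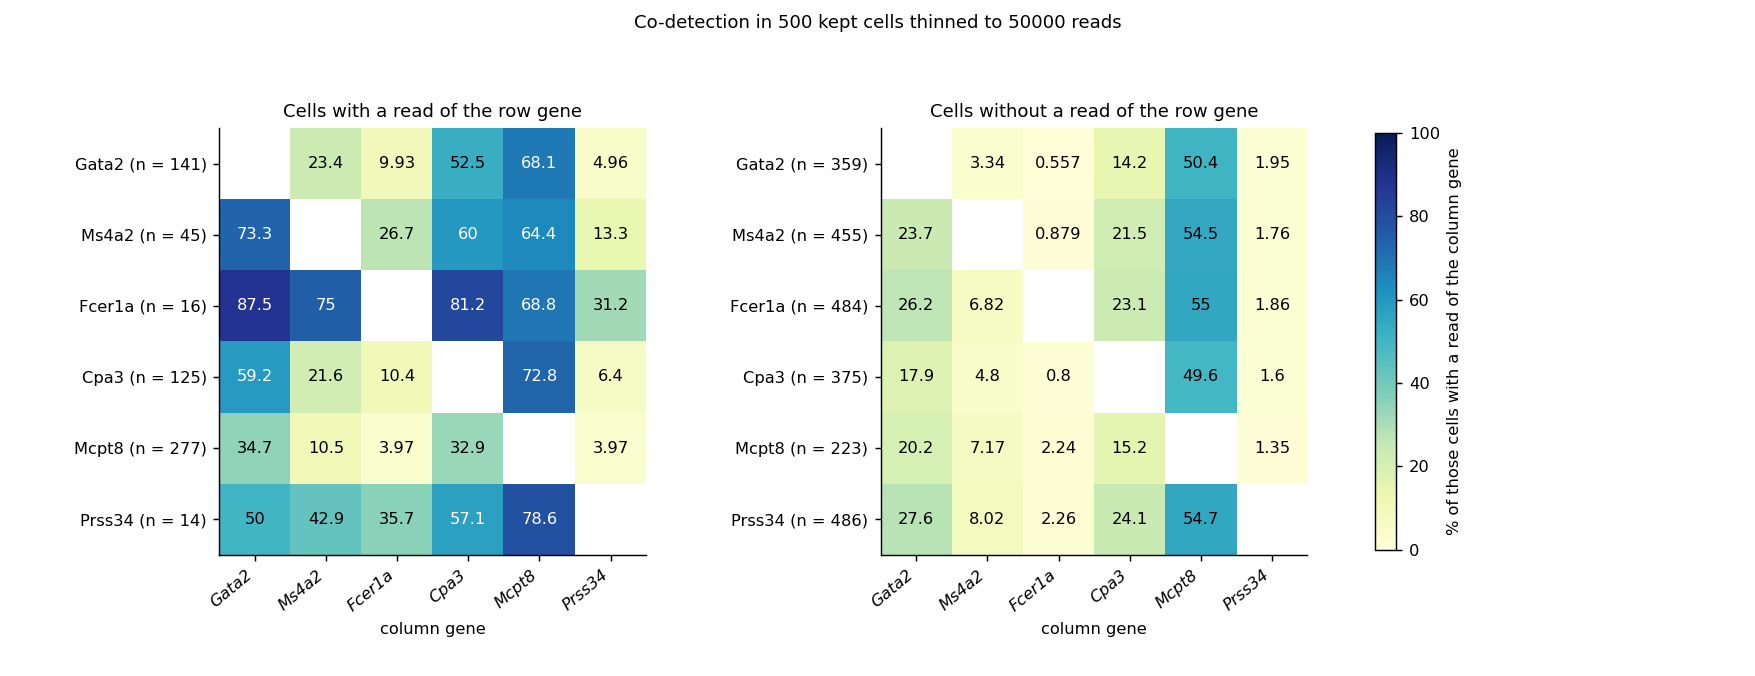
Percent of thinned cells with a read of the column gene, among cells with a read of the row gene (left) and among cells without one (right), over all 6 sets, with the number of cells beside each row gene. With Fcer1a in the row, Gata2 was read in 87.5% of 16 cells and Ms4a2 in 75%, against 26.2% and 6.82% of 484 cells without Fcer1a.

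Within sets, the level of Ms4a2 went with that of Fcer1a most closely (log2(CPM + 1), Pearson r of 0.66 averaged over the 4 sets with both, range 0.53 to 0.78). For Gata2 and Cpa3 the mean r was 0.50 over 6 sets, and it was positive in each (0.29 to 0.64). Mcpt8 had mean values of 0.11 with Ms4a2 and 0.24 with Gata2, and in the second day 8 set they were -0.13 and -0.18. These describe cells of 1 set that share a library preparation and differ in depth, and most rest on few cells.

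A read of at least 3 members was found in 68 of the 500 thinned cells. Their share was 7.61% at day 0 (7 of 92, interval 3.11% to 15.1%), 20% and 27.96% at day 8 (18 of 90 and 26 of 93, intervals 12.3% to 29.8% and 19.1% to 38.2%), 6.45% at day 10, 10.6% at day 12 and 4.26% at day 14. The second day 8 set lay above days 0, 10 and 14 beyond counting error, while the first day 8 set overlapped all of them. Shares were not tested between days. Without thinning the shares were 13.04% at day 0, 42.2% and 47.3% at day 8, 19.4% at day 10, 12.9% at day 12 and 4.26% at day 14. Counted without Mcpt8, the shares were 4.35% at day 0, 8.89% and 15.1% at day 8, 3.23% at day 10, 2.35% at day 12 and 0 at day 14. All 6 members were read in 4 thinned cells, 2 in the first day 8 set, 1 at day 10 and 1 at day 12.

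Single cells show the range within this group. In the first day 8 set, a cell with 70907 reads in genes had 2919 CPM of Mcpt8, 2905 of Prss34, 1763 of Ms4a2, 1030 of Fcer1a, 903 of Cpa3 and 169 of Gata2. In the same set, a cell with 219254 reads had 9633 CPM of Cpa3, 8561 of Mcpt8 and 2107 of Gata2, but 0 reads of Prss34. In the second day 8 set, a cell with 244431 reads had 1403 CPM of Ms4a2, 732 of Gata2, 520 of Fcer1a and 499 of Cpa3, with 0 reads of both Mcpt8 and Prss34. Cells with all receptor and granule genes, and cells with the receptor genes but without either basophil protease, were thus both present on day 8. On day 10 a cell with 55827 reads had 11643 CPM of Cpa3, 4066 of Mcpt8, 1415 of Gata2 and 1200 of Prss34. On day 12 a cell with 91293 reads had 2793 CPM of Ms4a2, 2267 of Prss34 and 1205 of Fcer1a, and it was the top cell of the set for these 3 genes.

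**Figure D4:**
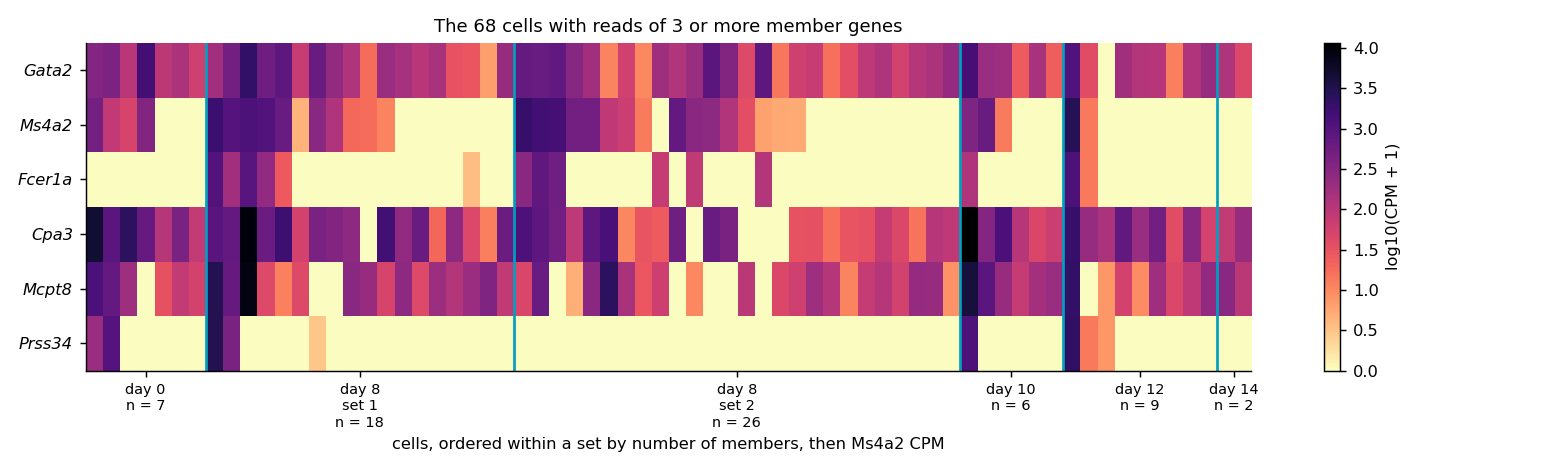
The 68 kept cells with reads of 3 or more members after thinning, as columns by set, coloured by log10(CPM + 1) of each member before thinning. Gata2 (67 of 68 cells) and Cpa3 (63 of 68) run through all sets, while Prss34 is dark in 1 or 2 cells of a set at most.

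Of the 8 mediator genes, 3 stood clearly higher in these 68 cells than in the other 432 (Hdc, Slc18a2 and Alox5), and the other 5 did not. Values are CPM of summed reads, averaged over the 6 sets with equal weight, and describe cells that were grouped by the members; no test was made. Hdc, the enzyme that makes histamine, averaged 429 CPM in the 68 cells and 118 CPM in the other cells. Slc18a2, the vesicular amine transporter, averaged 89.1 CPM and 11.4 CPM in the same order. Both were higher in the 68 cells in 6 of 6 sets. Alox5, which starts leukotriene synthesis, averaged 52.4 CPM against 1.76 CPM and was higher in 5 of 6 sets. Alox5ap averaged 144.2 CPM against 143.8 CPM, Ptgs1 15.1 CPM against 24.5 CPM (lower in 4 of 6 sets), Ltc4s 1.08 CPM against 1.06 CPM, and Hpgds was higher in 3 sets and lower in 3, while Tph1 was read in 1 of the 68 thinned cells. Cytokine receptor genes were split. Il1rl1, the IL-33 receptor, averaged 9.76 CPM against 0.434 CPM, and was higher in 4 of 6 sets. Crlf2 was higher in 6 sets, and Kit and Csf2rb2 were higher in 5. Il3ra and Csf2rb were higher in 3 and lower in 3, and Il4ra was lower in 4. Csf2ra averaged 35.03 CPM against 63.7 CPM and was lower in 6 of 6 sets. The IgE receptor's gamma chain Fcer1g, which is shared with other Fc receptors, was lower in 6 of 6 sets, at 247 CPM against 435 CPM. Proteases of mature mast cells were at or near 0 in the 68 cells: Mcpt1, Mcpt4, Tpsab1, Tpsb2 and Tpsg1 were at 0 CPM, and Cma1 was read in 2 thinned cells.

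Markers of other lineages differed between the same groups of cells. The monocyte list was lower in the 68 cells in every set, at 60.3 to 536 summed CPM over 6 genes, against 642 to 6729 in the other cells. Irf8, a monocyte and dendritic cell factor, averaged 45.2 CPM against 352 CPM, and Ly6c2 132 CPM against 2788 CPM. The neutrophil granule list was also lower in every set, at 15487 to 66069 CPM over 6 genes, against 34370 to 84399 CPM in the other cells. Elane, Mpo, Prtn3 and Ctsg were each lower in 6 of 6 sets. Gfi1 was higher in 3 and lower in 3, and Cebpe was higher in 5. Mpo was read in all 68 cells and in all 432 others. The erythroid list was higher in the 68 cells in 5 sets, by most in the day 8 sets, at 513 and 636 CPM against 91.98 and 66.1 CPM. Its highest genes there were Car2, Gata1 and Klf1, while Hba-a1 was at 0 in both. The megakaryocyte list ran from 50.5 to 162 CPM against 12.9 to 24.7 CPM, mostly Itga2b, with Gp1bb at 0 in 5 of 6 sets of the 68 cells. The eosinophil list ran from 44.2 to 3012 CPM against 22.4 to 283 CPM. Prg2 was read in 4 of the 68 thinned cells (5.88%) and in 27 of the 432 others (6.25%). Epx was read in 7.35% and 6.02% in the same order, Prg3 in 7.35% and 3.7%, and Il5ra in 0 and 1 cells. Siglecf was read in 58.8% and 30.3%, averaged 56.3 against 25.4 CPM and was higher in 6 of 6 sets. The stem and multipotent list ran from 208 to 1238 CPM in the 68 cells against 90.1 to 961 CPM and was higher in each set. Dendritic cell, lymphoid and macrophage lists were below 70 CPM in the 68 cells, with Siglech, Cd74, Il7r, Cd79a, Adgre1 and C1qa at 0. The sort gate genes summed to 770 to 1044 CPM against 678 to 861 CPM, but they did not move together. Cd34 averaged 587 against 440 CPM and was higher in 6 of 6 sets, and Kit was higher in 5. Fcgr3 averaged 191 against 248 CPM and was lower in 5. Ly6a, which the gate sorts against, averaged 2.75 against 8.61 CPM and was also lower in 5. The median cell of the 68 had 182027 reads in genes, against 175387, and 47.1 reads in genes per spike-in read, against 56.4. The part of these differences in the member levels by day was not tested.

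**Figure D5:**
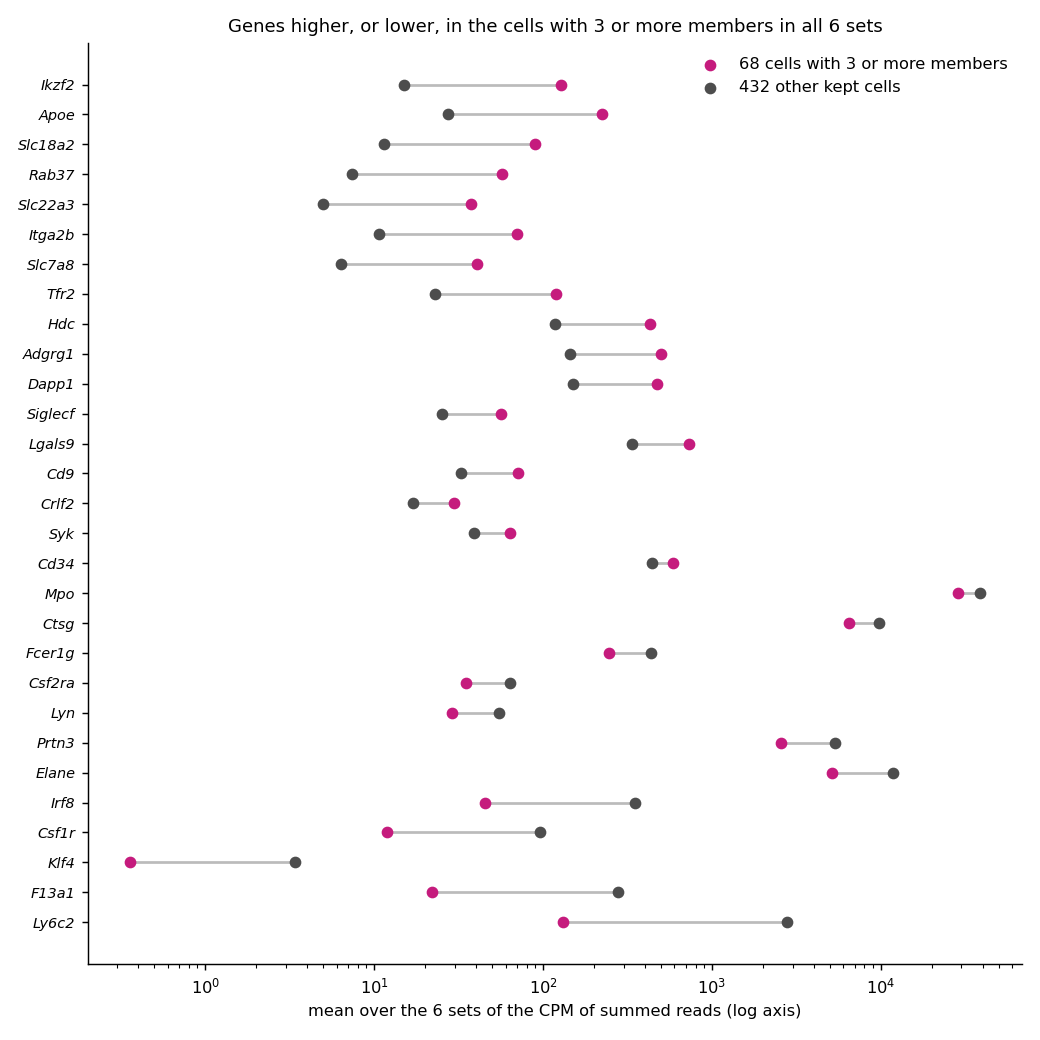
Mean over the 6 sets of the CPM of summed reads, on a log axis, in the 68 cells with 3 or more members and in the 432 other kept cells, for genes of the lists and the genes most like the members that were on the same side in all 6 sets; Adgre1, at 0 in the 68 cells, is not drawn. Ikzf2, Apoe and Slc18a2 are farthest to the right of the other cells, and Ly6c2 and F13a1 farthest to the left. The genes most like the members, Ikzf2 and Apoe among them, were picked by their levels in these same cells, so their side follows from that choice.

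The genes whose levels were most like the mean of the 6 members, over cells within sets and averaged over 6 sets, were Csrp3 (mean r 0.59), Itga2b (0.57), Rab37 (0.50), Ikzf2 (0.49) and Apoe (0.47), out of 15810 genes detected in 5% of cells or more. The next 10 were Alox5, Tfr2, Slc22a3, Angpt1, Rnase12, Gata1, Adgrg1, Lgals9, Dapp1 and Slc7a8, with mean r from 0.46 to 0.40. Itga2b encodes the integrin CD41 and Csrp3 a muscle LIM protein. Csrp3 was read in 18 of the 68 thinned cells and in 3 of the 432 others. Likeness and the 68 cells both rest on the member levels in these cells, so that difference follows from the choice. Csrp3 had no reads at day 14, which counted as r = 0. Taken alone, Ms4a2 and Fcer1a were each most like Csrp3 (mean r 0.61 over 6 sets and 0.75 over 4), Prss34 likewise (0.54 over 5), Cpa3 was most like Itga2b (0.57) and Gata2 most like Cpa3 (0.50). For Mcpt8 the highest value was 0.28, with Calr, below those of the other members.

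Of the wider pathway, the surface genes of basophils and mast cells moved most on day 8 against day 0: 5 of 8 tested rose and 0 fell, with a median log2 change of 1.17 beside 0.01 over all genes tested, of which 5.63% were called. Cd244a, an inhibitory or activating receptor of the SLAM family, had 16.1 and 25.2 CPM at day 8, against 4.45 CPM at day 0 after TMM scaling, a rise of 2.21 (adjusted p = 0.00288). Itga2b had 13.9 and 33.3 CPM at day 8, against 8.23 CPM at day 0, a rise of 1.52 (adjusted p = 0.0285). Cd200r3, a basophil and mast cell receptor, rose by 3.35 (adjusted p = 0.0489) and the integrin chain Itgb7 by 1.34 (adjusted p = 0.019). Cd200r3 passed the filter on cells only through the first day 8 set. Itga2b is also a megakaryocyte and stem cell gene. On day 10 against day 8, 0 of these 8 passed the test, with a median of -0.84.

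Transcription factors split: of 14 tested, 3 rose, 1 fell and 10 did not pass the test on day 8 against day 0, with a median of 0.22. Gata1, which partners and follows GATA2 in mast cell, erythroid and megakaryocyte cells, had 15.3 and 21.2 CPM at day 8, against 2.34 CPM at day 0, a rise of 2.96 (adjusted p = 0.00161). Its cofactor Zfpm1 rose by 4.02 (adjusted p = 0.00339) and Lmo2 by 1.08 (adjusted p = 0.0127). Irf8 had 195 and 126 CPM at day 8, against 512 CPM at day 0, a fall of 1.67 on the log2 scale (adjusted p = 2.34e-05). Gata1 and Zfpm1 are also erythroid genes, and Klf1, an erythroid factor, had 8.01 and 15.2 CPM at day 8, against 0 CPM at day 0.

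Of the 11 signalling genes downstream of the IgE receptor, all tested, 0 rose and 1 fell on day 8 against day 0, with a median of 0.27. At 5.63% of all genes called, 1 call in a list of this size is near the background, as it is in the next list. The gene that fell was Fcer1g, with 267 and 244 CPM at day 8, against 787 CPM at day 0, by 1.62 on the log2 scale (adjusted p = 2.57e-05). The kinase gene Btk and the phospholipase gene Plcg2 differed by 0.27 and 0.45 (adjusted p = 0.656 and 0.386), and the adaptor gene Lat2 by 0.16 (adjusted p = 0.809). Of 8 cytokine receptor genes 0 rose and 1 fell, with a median of 0.19. This was Csf2ra, the GM-CSF receptor alpha chain, by 1.01 (adjusted p = 0.0134). Kit, Csf2rb and Il4ra differed by -0.69, 0.40 and 0.58 (adjusted p = 0.114, 0.455 and 0.373). Of the mediator genes 7 of 8 were tested, of which 1 rose and 1 fell, with a median of -0.04. Alox5 had 23.6 and 11.7 CPM at day 8, against 4.87 CPM at day 0, a rise of 1.86 (adjusted p = 0.0481). Alox5 passed the filter on cells only through the day 8 sets. Hdc had 85.6 and 99.8 CPM at day 8, against 186 CPM at day 0, a fall of 1.01 (adjusted p = 0.00994). Alox5ap and Ptgs1 differed by -0.28 and -0.13 (adjusted p = 0.61 and 0.885). Hdc thus fell in the summed cells while it was higher in the cells with 3 or more members. Of 11 granule genes only 3 were tested, and the 1 called was Gzmb, which had 53.1 CPM in the first day 8 set, 0.0361 CPM in the second and 0 at day 0. A single cell held 1713 of its 1739 reads in the first set. Gzmb passed the filter on cells only through that set. Ctsg and Srgn differed by -0.28 and -0.29 (adjusted p = 0.684 and 0.646), and Mcpt2 was not tested, with at most 0.764 CPM in a set.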

How the data were processed

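Per the labels' protocols, libraries were made by Smart-seq2 followed by Nextera XT tagmentation, neither of which marks the strand. The deposited values are raw read counts per gene and cell, for which the submitters' processing notes name GSNAP, HTSeq 0.5.3p3 and the mm10 build. In the median cell 90.4% of reads stood in rows that name no gene, and these and the spike-ins were left out; 1 column was not used. Symbols were matched for 45143 of 46078 gene IDs with GENCODE vM21. The members and lists were chosen with earlier results of these data known.

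Cells with fewer than 50000 reads or 1000 genes were dropped, and no doublet caller was run. For shares, each cell was thinned to 50000 reads with a fixed seed. PCR copies are counted, so intervals and limits cover counting error only, and deeper sets give the firmer levels. Cells are not replicates: counts were summed per set, and edgeR 4.0.16 (R 4.3.3) fitted 1 mean per day over all 6 sets with TMM scaling and the quasi-likelihood test, with Benjamini-Hochberg adjustment over 15145 genes and a threshold of 0.05. Tested genes passed filterByExpr by day and were read in at least 10% of the cells of a set. The fit had 1 residual degree of freedom and a median prior of 51.5, and was tested on simulated data. Likeness is Pearson's r of log2(CPM + 1) over cells within a set. All members are named; of each pathway list, up to 4 called genes with the largest change on day 8 against day 0, filled up by the highest CPM; and the 15 most alike genes. Other genes named from the marker lists and the cell profiles were chosen after their values were seen. Alternatives used DESeq2 1.42.0, limma 3.58.1 and the settings given in the closing section; tables and figures used matplotlib 3.10.9, scipy 1.17.1, pandas 2.3.3 and numpy 2.4.6 under Python 3.11.15. As days 0, 10, 12 and 14 have 1 set each, the day cannot be told apart from bone preparation or plate.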

Additional observations from a re-analysis of the deposited data

Results flagged for a closer look

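A day 10 cell that was not kept, with 46372 reads in genes and 4324 genes with a read, had 2731 reads of the 6 members together. It is given here because it lies outside the comparisons and because the 4 cells of day 0 that were not kept had 0 reads of any member. It had 23635 CPM of Mcpt8 and 21586 CPM of Prss34, where the highest kept cells of that day had 4066 and 1200 CPM. It also had 6944 CPM of Cpa3, 5413 CPM of Fcer1a, 669 CPM of Ms4a2 and 647 CPM of Gata2. Of these, Cpa3 and Gata2 were below the highest kept cell of that day, at 11643 and 1415 CPM.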

How the results depend on the processing

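With each cell thinned to 50000 reads before summing, 0 members were called in any of the 7 comparisons; the median prior degrees of freedom were then 2.06, against 51.5. Without a filter on low counts, 5 members were called on day 8 against day 0, and 1 on day 12 against day 0. On day 10 against day 0, DESeq2's Wald test called 0 members, and 2 were called without the filter on cells, with only cells of at least 200000 reads in genes and 2000 genes, and without the day 14 set. On day 12 against day 0, 1 was called with those deeper cells and 1 without the day 14 set. On day 14 against day 0, 1 was called with DESeq2 size factors, with DESeq2's Wald test and with limma voom. On day 12 against day 8, DESeq2's Wald test called 1. On day 10 against day 8 it called 2 of the 3, and on day 14 against day 8 it called 3 of the 4, as did limma voom, DESeq2 size factors, the deeper cells and the 2 days alone. Prss34 on day 10 against day 8 turned round without the filter on cells, at 3.39 (adjusted p = 2.68e-05), against -0.23 with it; that setting adds the day 10 cell with 1001 reads of Prss34. The cause of the other differences was not tested.

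The share of cells counted as holding several members moved with the definition. With 2 or more members it was 28.3% at day 0, 46.7% and 55.9% at day 8, 26.9% at day 10 and 21.2% at day 12. With 4 or more it was 3.26% at day 0, 6.67% and 9.68% at day 8, 3.23% at day 10, 2.35% at day 12 and 0 at day 14. Without thinning it was 42.2% and 47.3% on day 8 and 19.4% on day 10, and without the filter on cells as well 41.7%, 46.8% and 19.8%. Without Mcpt8 it was 4.35% at day 0, 8.89% and 15.1% at day 8, 3.23% at day 10, 2.35% at day 12 and 0 at day 14. Leaving out either day 8 set leaves no residual degrees of freedom, so it gave values and no test. The fits without day 14 and the count without Mcpt8 were added after the data were seen. Depth limits day 14 most, with 47 cells.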
